A study of Diplotaxodon limnothrissa and Petrotilapia genalutea and Rhamphochromis longiceps with 60 samples.

Results

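The glucocorticoid receptor gene nr3c1 and 4 genes that the receptor is known to induce in vertebrates, fkbp5, klf9, tsc22d3 and tat, were followed across livers and muscles of 4 Lake Malawi cichlid species. The genes were chosen by symbol and not by their values, although earlier results of these data were known when the choice was made. Of the 5 symbols, 3 (nr3c1, klf9 and tat) match a row among the 29676 genes of the expression tables, and fkbp5 and tsc22d3 were not analysed here. The species are Diplotaxodon limnothrissa (DL), which lives in deep open water, Rhamphochromis longiceps (RL), a fish eater of open water, and the rock-dwelling algae eaters Maylandia zebra (MZ) and Petrotilapia genalutea (PG). All fish were wild-caught adult males without any treatment, sampled after death. Total RNA was sequenced from 11 livers (3 of DL, 3 of MZ, 3 of PG and 2 of RL) and 12 muscles (3 of each species), and 11 fish have both tissues in the tables. Fish are named by species and number, so that DL3 is 1 fish whether its liver or its muscle is meant. The species were taken at different places by different fishing methods, so that species, site and capture cannot be told apart, and bulk tissue does not separate fewer cells of a type from less RNA per cell. Both rock-dwelling species belong to the Mbuna group and eat algae, so that habitat, descent and diet cannot be told apart either.

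Cortisol, the main glucocorticoid of bony fishes, is released by the interrenal tissue of the head kidney during stress and fasting. It binds the glucocorticoid receptor, which waits in the cytoplasm in a complex with heat shock protein chaperones, moves to the nucleus and switches genes on or off. The products of fkbp5 and tsc22d3 restrain the receptor and inflammation, klf9 encodes a zinc finger repressor that also responds to thyroid hormone, and tat encodes tyrosine aminotransferase, which starts the breakdown of tyrosine in the liver and was among the first genes shown in mammals to be induced by glucocorticoids. In liver, glucocorticoids raise the making of glucose from amino acids, and in muscle they favour the release of those amino acids. Cortisol itself and the receptor protein were not measured here.

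Expression is given in TPM, a share of all transcripts of a library scaled to transcript length, so that every library has the same total. Differences between species are log2 fold changes of TPM + 1 from a linear model (limma) fitted to all tested genes of a tissue, with standard errors (SE), and are called where the Benjamini-Hochberg adjusted p over all tested genes is under 0.01. TPM keeps no read counts, so the depth behind a low value is unknown. The livers had between 10111 and 13933 genes at 1 TPM or more and the muscles between 13045 and 15324. MZ1 liver stands apart at the low end of this range, and the median fold change of all genes between DL and MZ livers was 0.40, or 0.05 after quantile normalization. Of the hepatocyte markers 4 of 27 are listed (fgb, fgg, tf and itih2), and they summed to between 10051 and 32291 TPM in the livers and at most 19.3 TPM in the muscles. These liver sums ran from 28087 to 32291 TPM in PG and from 22660 to 27974 TPM in DL. They ran from 13225 to 20905 TPM in MZ and from 10051 to 15854 TPM in RL. In liver 3 of 23 exocrine pancreas markers summed to 239 to 652 TPM in RL and 212 to 302 TPM in DL. Their sums were 11.9 to 526 TPM in MZ and 38.8 to 155 TPM in PG livers. Of the skeletal muscle markers 4 of 38 are listed (myl1, neb, mybpc2 and mb), and they summed to between 5018 and 28418 TPM in the muscles and at most 108 TPM in the livers. In muscle 4 of 17 markers of stroma, fat and endothelium summed to 309 to 423 TPM in RL and 78.0 to 328 TPM in DL. In MZ and PG muscles these sums were 32.6 to 94.5 TPM and 49.1 to 190 TPM. The part of these sums in the differences between species was not tested.

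In liver, the receptor gene nr3c1 was expressed most in DL, then in RL, MZ and PG. The 3 DL livers held 21.0, 19.9 and 40.0 TPM, the RL livers 13.1 and 14.3 TPM, the MZ livers 4.65, 6.47 and 9.58 TPM and the PG livers 2.89, 2.48 and 4.40 TPM. The ranges of the 4 species are thus all apart, in 6 of 6 pairs of species. Among the tested liver genes 0.813% have all 6 pairs apart, and taken singly the ranges do not overlap in 34.5% of the genes for DL and MZ, 42.9% for DL and PG, 29.4% for DL and RL, 26.7% for MZ and PG, 34.9% for MZ and RL and 51.3% for PG and RL. The mean was 27.0 ± 11.3 TPM in DL (SD, n = 3) against 6.90 ± 2.49 TPM in MZ (SD, n = 3) and 3.26 ± 1.01 TPM in PG (SD, n = 3), that is 3.91-fold and 8.29-fold.

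nr3c1 was called higher in DL than in PG livers (log2 fold change 2.67, SE 0.37, adjusted p = 0.000861), in a comparison that called 8.4% of all tested genes, and higher in DL than in MZ livers (1.80, SE 0.37, adjusted p = 0.00951), where 4.56% of genes were called. The call against PG was kept with every library left out in turn. The call against MZ lies at the threshold and was lost with any library left out, with adjusted p between 0.0101 and 0.0387. The difference between PG and RL livers was -1.81 (SE 0.41, adjusted p = 0.0161), just short of the threshold, and passed it after quantile normalization (-2.00, adjusted p = 0.000938). Neighbours in the order of the species were not told apart by the test: DL minus RL was 0.86 (95% interval -0.04 to 1.76, adjusted p = 0.430), MZ minus RL was -0.94 (-1.84 to -0.04, adjusted p = 0.211) and MZ minus PG was 0.87 (0.07 to 1.67, adjusted p = 0.189). Of all tested genes these 3 comparisons called 0.795%, 1.87% and 1.37%. Over all 4 species at once, the moderated F test called nr3c1 in liver (adjusted p = 0.00251), as it did 8.6% of the genes. This call was lost without PG1 (adjusted p = 0.0102) or PG2 liver (adjusted p = 0.0111).

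**Figure D1:**
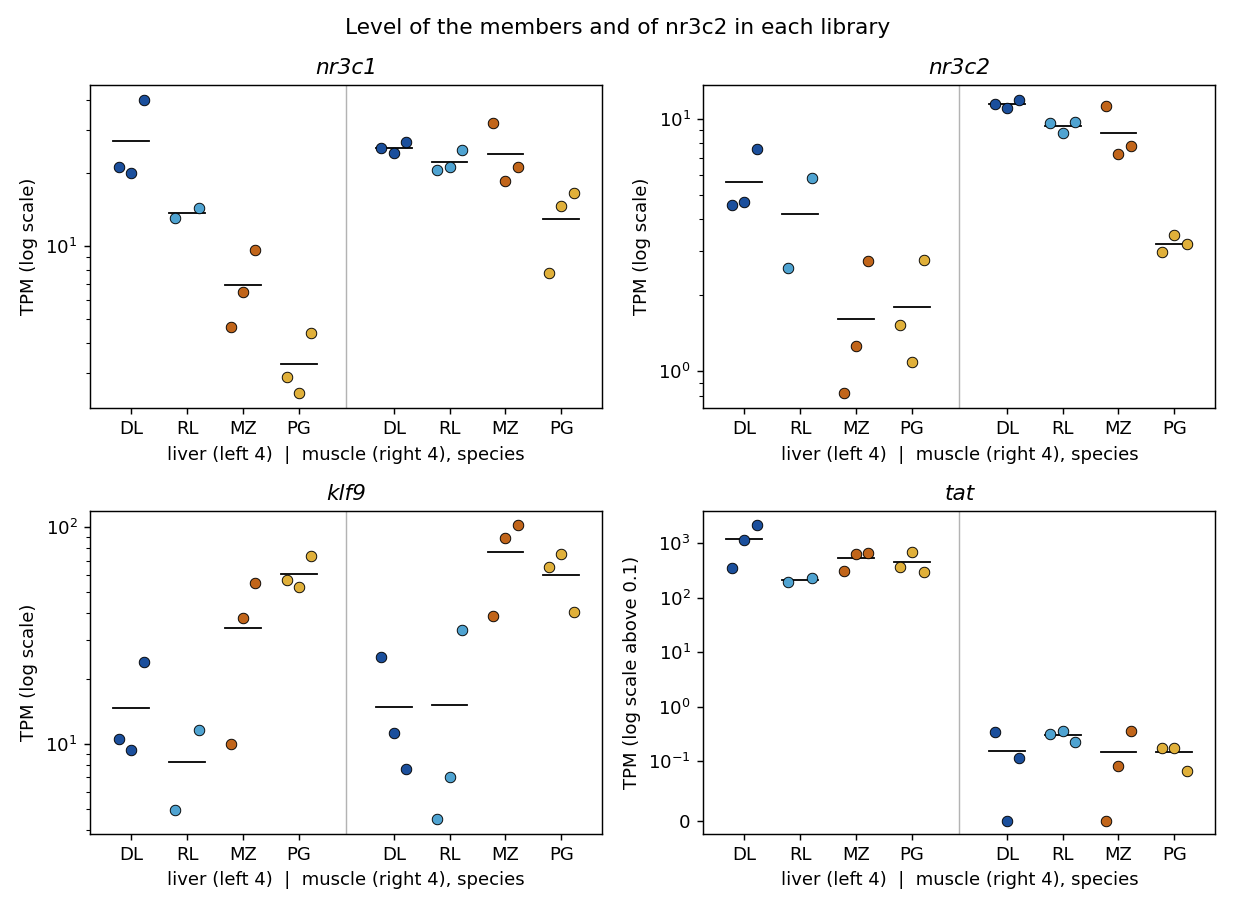
TPM (vertical axis, log scale; for tat log above 0.1 and linear to 0) of nr3c1, nr3c2, klf9 and tat in each library, by tissue and species; points are single fish and lines are means of 2 or 3 fish. In liver nr3c1 falls from DL through RL and MZ to PG without overlap, klf9 is highest in PG, and tat is at or under 0.361 TPM in every muscle.

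In muscle nr3c1 stood at 25.2, 24.2 and 26.8 TPM in DL, 20.6, 21.1 and 24.8 TPM in RL, 32.0, 18.4 and 21.1 TPM in MZ and 7.75, 14.5 and 16.5 TPM in PG. The 3 PG muscles lie below all 9 others, as the ranges of 42% (against DL), 23.7% (against MZ) and 39.4% (against RL) of all tested genes are also apart, while the ranges of MZ and RL overlap and that of MZ also spans the range of DL. The mean of PG, 12.9 ± 4.59 TPM (SD, n = 3), compares with 25.4 ± 1.34 TPM in DL (SD, n = 3). No pair was called: DL minus PG was 0.98 (SE 0.28, adjusted p = 0.0263), MZ minus PG 0.86 (SE 0.28, adjusted p = 0.118) and PG minus RL -0.79 (SE 0.28, adjusted p = 0.0601), in comparisons that called 10.6%, 1.13% and 11.8% of all tested genes.

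The 2 tissues were then compared within each species. For nr3c1 in DL the liver was above the muscle in 1 of 3 fish and the means differed by 0.02 on the log2 scale (95% interval -0.65 to 0.68, adjusted p = 0.998). In MZ the liver was below the muscle in 3 of 3 fish (-1.66, SE 0.32, adjusted p = 0.000221), and in PG likewise in 3 of 3 (-1.67, SE 0.32, adjusted p = 0.000239). These tissue comparisons called 34.7% of all tested genes for DL, 35.9% for MZ and 31.6% for PG. RL fell between them, with the liver lower in 2 of 2 fish and a difference of -0.65 (SE 0.35, adjusted p = 0.157), where 30.4% of the genes were called. Whether the difference between species is itself larger in liver was tested as an interaction. It was 1.68 for DL and MZ (SE 0.45, adjusted p = 0.0256) and 1.69 for DL and PG (SE 0.45, adjusted p = 0.0190), so neither passed the threshold; these interactions called 3.16% and 4.9% of all tested genes. After quantile normalization the latter was 1.55 (adjusted p = 0.00749) and the former 1.14 (adjusted p = 0.0554). The other 4 pairs, DL and RL, MZ and PG, MZ and RL, and PG and RL, had interactions between -1.02 and 0.67 and called 0.623%, 1.37%, 2.99% and 4.62% of the genes.

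nr3c2, the mineralocorticoid receptor, is a close relative of nr3c1 and binds cortisol in fishes as well. It is no member of the set, but is given beside nr3c1 for comparison. Rows without a gene symbol were not searched for further copies of the glucocorticoid receptor gene, so nr3c1 need not be all of its expression. In muscle nr3c2 was at 11.4, 11.0 and 11.9 TPM in DL, 9.62, 8.76 and 9.74 TPM in RL, 11.2, 7.25 and 7.83 TPM in MZ and 2.98, 3.45 and 3.18 TPM in PG. The PG muscles are again the lowest, and for nr3c2 this was called against DL (1.57, SE 0.19, adjusted p = 0.000345), RL (PG minus RL -1.30, SE 0.19, adjusted p = 0.000795) and MZ (1.195, SE 0.19, adjusted p = 0.00623). The call against MZ was lost after quantile normalization (1.104, adjusted p = 0.0112) and when any of 10 of the 12 muscle libraries was left out. In liver nr3c2 was between 4.54 and 7.58 TPM in DL, at 2.57 and 5.81 TPM in RL, between 0.819 and 2.73 TPM in MZ and between 1.08 and 2.76 TPM in PG. The ranges of MZ and PG overlap there, as do those of DL and RL, and no pair of species was called. nr3c1 exceeded nr3c2 in all 23 libraries, by between 1.59 and 5.68 times in liver and between 2.14 and 5.19 times in muscle.

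Among the livers, klf9 had its highest mean in PG and its lowest in RL. In liver the PG fish held 57.03, 52.7 and 73.3 TPM, the MZ fish 9.99, 38.0 and 54.9 TPM, the DL fish 10.5, 9.32 and 23.9 TPM and the RL fish 4.92 and 11.6 TPM. All PG livers lie above all DL and RL livers (ranges apart in 42.9% and 51.3% of all tested genes), while MZ spreads across both, with MZ1 as its low value. The mean of PG, 61.0 ± 10.9 TPM (SD, n = 3), was 4.19-fold that of DL and 7.40-fold that of RL. Neither difference was called at the threshold: DL minus PG was -2.10 (SE 0.59, adjusted p = 0.0273) and PG minus RL was 2.83 (SE 0.66, adjusted p = 0.0183), in a comparison that called 4.05% of the genes. Both passed without MZ1 liver (adjusted p = 0.00848 and 0.00620) and after quantile normalization (adjusted p = 0.00771 and 0.00773). Other livers left out weakened them. Over all single livers left out, DL minus PG moved between -2.50 and -1.86, with an adjusted p of up to 0.0821. PG minus RL moved between 2.29 and 3.37.

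In muscle klf9 split the species into pairs. The MZ fish had 38.8, 88.7 and 101.9 TPM and the PG fish 65.4, 75.1 and 40.6 TPM, against 25.2, 11.2 and 7.67 TPM in DL and 4.50, 7.05 and 33.6 TPM in RL. Every muscle of the rock-dwelling species thus lies above every muscle of the open-water species, in 4 of 4 pairs across the habitats, with RL3 and MZ1 as the closest values. Among all tested genes, the ranges do not overlap in 35% (DL and MZ), 42% (DL and PG), 33.6% (MZ and RL) and 39.4% (PG and RL). The 4 differences were similar in size: 2.35 between MZ and DL (adjusted p = 0.0378), 2.08 between PG and DL (adjusted p = 0.0349), 2.64 between MZ and RL (adjusted p = 0.0185) and 2.37 between PG and RL (adjusted p = 0.0199), each with an SE of 0.64. These sizes are given as the rock-dwelling species minus the open-water species. None was called at 0.01, in comparisons that called 3.4%, 10.6%, 5.82% and 11.8% of all tested genes. Over the 4 species at once the F test gave an adjusted p of 0.0139 for klf9 and 0.0579 for nr3c1 in muscle, where 13% of the genes were called. RL3 carries much of the spread: without it the differences from RL rose to 3.43 for MZ (adjusted p = 0.00327) and 3.16 for PG (adjusted p = 0.00276). With other single muscles left out, the adjusted p of these differences from RL rose as high as 0.0727 for MZ and 0.0706 for PG. For the differences from DL it rose as high as 0.131 for MZ and 0.121 for PG. Of the 12 member tests between species in muscle 0 was called by limma and 7 had an unadjusted p under 0.05.

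No difference of klf9 between the tissues of a species was called. Liver minus muscle was 0.03 in DL (95% interval -1.34 to 1.40), 0.05 in PG (-1.33 to 1.42), -0.42 in RL (-1.95 to 1.12) and -1.31 in MZ (-2.68 to 0.06). The MZ livers averaged 34.3 TPM against 76.5 TPM in the muscles, with the liver lower in 3 of 3 fish. The intervals span more than a 2-fold change either way in DL and PG, so that they do not show equal levels. The fish with the most klf9 in its liver was also the one with the most in its muscle in 2 of 4 species, and the same held for nr3c1 in 3 of 4. With 2 fish in RL and 3 in each other species, such matches arise often by chance, and their share over all genes was not counted.

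**Figure D2:**
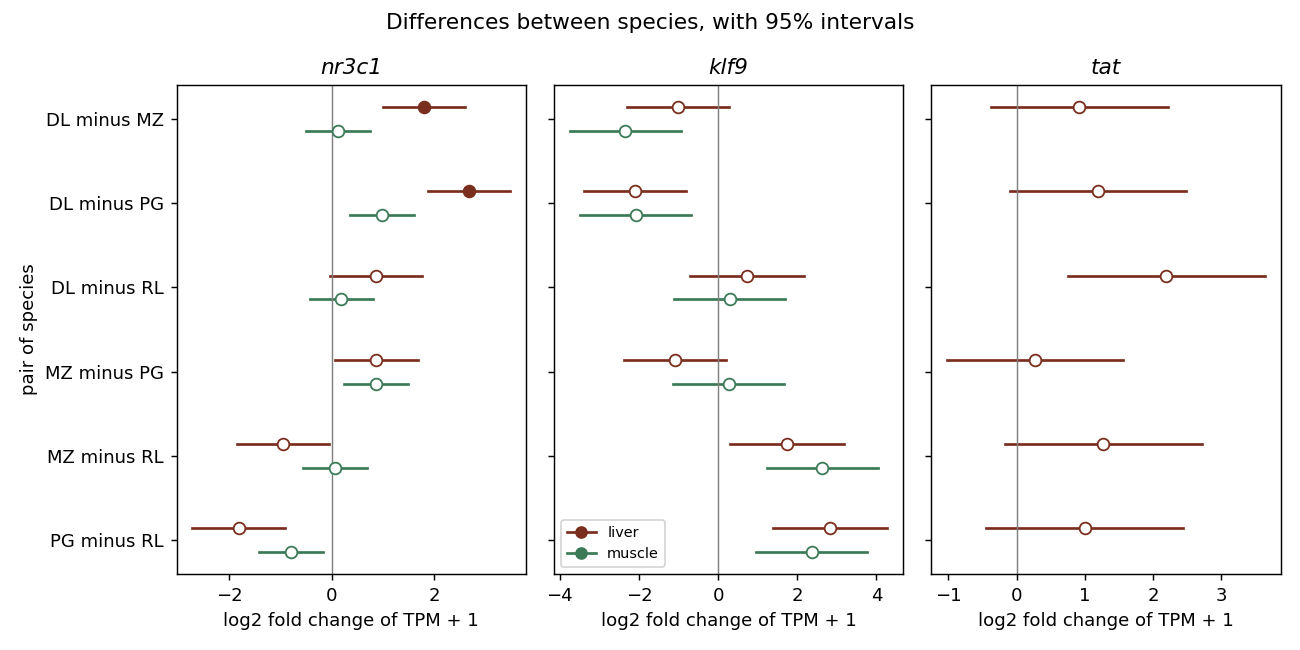
Log2 fold change of TPM + 1 (horizontal axis) for the 6 pairs of species with 95% intervals, for nr3c1 and klf9 in liver and muscle and for tat in liver; filled points are called at an adjusted p under 0.01. Only DL minus MZ and DL minus PG of nr3c1 in liver are filled, and the klf9 differences between the rock-dwelling and the open-water species have the same sign in both tissues.

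Leukocyte markers, summed over genes, were higher in MZ and PG than in DL and RL livers, as the means of klf9 were. The order was not the same: the highest liver sum was in MZ, and klf9 was highest in PG. The 12 of 24 that are listed summed to between 176 and 492 TPM in MZ livers and 236 and 291 TPM in PG livers, against 41.2 to 123 TPM in DL and 47.6 to 53.4 TPM in RL. In muscle the sums were between 223 and 262 TPM in MZ, 146 and 428 TPM in PG, 89.2 and 219 TPM in DL and 52.6 and 61.8 TPM in RL. The ranges of DL and PG thus overlap in muscle, where those of klf9 do not. rag1, a marker of developing lymphocytes, was at 0 in every liver. Within species the fish had the same order by sum and by klf9 in MZ livers, RL livers and DL muscles, but not in the other groups. In MZ livers the sums were 176, 377 and 492 TPM beside klf9 of 9.99, 38.0 and 54.9 TPM. By contrast, PG3 muscle had the highest sum of PG (428 TPM) and the lowest klf9 (40.6 TPM). RL3 muscle had the lowest sum of RL (52.6 TPM) and the highest klf9 (33.6 TPM). The part of leukocytes in the klf9 difference was not tested.

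Set against each other in the same library, the receptor gene and klf9 separate the livers. klf9 was between 0.467 and 0.597 times nr3c1 in DL livers and between 0.376 and 0.809 times in RL livers, but between 2.15 and 5.88 times in MZ livers and between 16.7 and 21.2 times in PG livers. No liver of an open-water species reached 1, and no liver of a rock-dwelling species fell below 2.15. klf9 alone did not split the livers this way, as MZ1 (9.99 TPM) lay within the range of DL (9.32 to 23.9 TPM). nr3c1 alone did, with ranges all apart, so the split of the ratio rests in part on nr3c1. How many other genes would split the livers as a ratio to nr3c1 was not counted. In muscle the ratios were between 0.286 and 1.003 in DL, 0.218 and 1.35 in RL, 1.21 and 4.82 in MZ and 2.46 and 8.43 in PG, so that DL and RL spread wider than in liver, every PG ratio lay below those of the PG livers, and RL3 overlaps with MZ1. Across libraries, the correlation of klf9 with nr3c1 (Pearson's r of log2 values) was -0.56 over 11 livers and -0.40 over 12 muscles. As the libraries fall into groups by species, this describes the order of the species and no test was made.

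**Figure D3:**
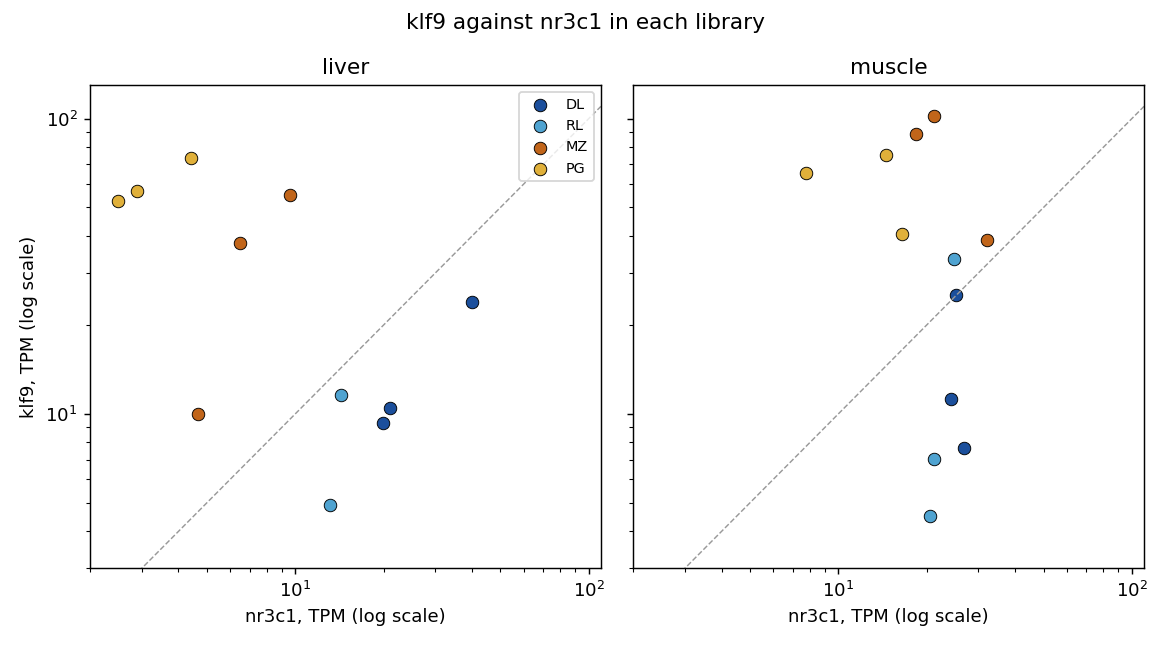
klf9 (vertical axis) against nr3c1 (horizontal axis), both in TPM on log scales, in 11 livers and 12 muscles; colours are species and the dashed line marks equal levels. In liver all MZ and PG points lie above the line, by between 2.15 and 21.2 times, and all DL and RL points lie below it.

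tat was a liver gene in all 4 species. The livers held 359, 1167 and 2158 TPM in DL, 310, 637 and 673 TPM in MZ, 368, 685 and 300.2 TPM in PG and 196 and 228 TPM in RL. The 3 DL livers alone span a 6-fold range and overlap with MZ and PG, and the 2 RL livers lie below all others. Among all tested genes, ranges are apart in 29.4% for DL and RL, 34.9% for MZ and RL and 51.3% for PG and RL. All 12 muscles were at or under 0.361 TPM, and DL2 and MZ1 muscles were listed at 0. Liver minus muscle was called for DL (9.73, SE 0.46, adjusted p = 8.57e-13), MZ (8.81, SE 0.46), PG (8.53, SE 0.46) and RL (7.35, SE 0.51, adjusted p = 4.77e-10), values that the pseudocount of 1 TPM limits.

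Between species no tat difference was called in liver. The largest, DL minus RL, was 2.19 (95% interval 0.75 to 3.63, adjusted p = 0.155), where 0.795% of all tested genes were called, and it moved between 1.61 and 2.90 as single livers were left out. Between DL and PG it was 1.19 (-0.10 to 2.48, adjusted p = 0.166) and between MZ and PG 0.27 (-1.02 to 1.56, adjusted p = 0.852). Over the 11 livers the correlation of tat (r of log2 values) was 0.39 with nr3c1 and 0.24 with klf9, given as a description.

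The other enzymes of tyrosine breakdown shared the liver level of tat. Of the 8 other genes listed for the pathway 4 are in the tables, pah, hgd, gstz1 and fah, and all 4 were called higher in liver than in muscle in each species, with a median difference of 5.82 (DL), 5.57 (MZ), 6.87 (PG) and 6.52 (RL). The medians over all tested genes lay between -0.46 and -0.22, and 12.2%, 8.59%, 11.2% and 10.4% of them were called higher in liver in the 4 species in this order. For pah, which makes tyrosine from phenylalanine, the difference was between 8.50 and 9.67. Between species in liver, 0 of the 4 was called by limma in any pair, and at most 1 of 4 had an unadjusted p under 0.05, in pairs that called at most 8.4% of all tested genes. In muscle fah, the last enzyme of the pathway, was higher in DL than in PG (8.92 against 2.78 TPM, log2 fold change 1.38, SE 0.27, adjusted p = 0.00433), which was lost after quantile normalization. This was 1 of 3 tested in that pair, where 6.31% of all tested genes were called higher in DL.

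Most chaperones that hold the receptor ready for hormone were higher in PG than in DL and RL muscles. Of 18 symbols listed for this complex 9 are in the tables. In muscle 7 of the 9 were higher in PG than in DL and 7 of 9 higher in PG than in RL, with none lower, while 4.3% and 6.96% of all tested genes were called in those directions. Their median fold change was -3.98 for DL minus PG and 3.49 for PG minus RL, against 0.21 and -0.04 over all genes. stip1, which bridges the heat shock proteins 70 and 90, stood at 1521, 761 and 1670 TPM in PG muscles, 86.4, 190 and 316 TPM in MZ, 21.9, 22.1 and 15.6 TPM in DL and 21.5, 78.6 and 23.9 TPM in RL. ptges3, the p23 co-chaperone, was at 437 TPM in PG against 4.42 TPM in RL muscles (6.42, SE 0.53, adjusted p = 2.49e-05), and dnajb1, a heat shock protein 40, at 1170 against 18.1 TPM (5.89, SE 0.41, adjusted p = 8.01e-06). In MZ muscles 5 of 9 were higher than in DL and 4 of 9 higher than in RL, where 1.81% and 4.17% of all tested genes were called in those directions. Between MZ and PG muscles 0 of 9 was called by limma, with 6 at an unadjusted p under 0.05 and a median of -1.42 for MZ minus PG. These chaperones also serve many other proteins and are induced by heat and by damage to proteins.

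In liver 7 of the 9 chaperone genes were higher in PG than in MZ, 6 of 9 higher than in DL and 3 of 9 higher than in RL, where 1.05%, 3% and 2.09% of all tested genes were called in those directions. The median differences were -3.03 for MZ minus PG, -1.83 for DL minus PG and 1.95 for PG minus RL. ahsa1, which stimulates the ATPase of heat shock protein 90, was at 86.2, 149 and 150 TPM in PG livers and 5.24, 7.25 and 4.73 TPM in MZ livers (MZ minus PG -4.24, SE 0.53, adjusted p = 0.00144). Here MZ was the lowest species for dnajb1, with 3.38, 10.8 and 6.01 TPM against 85.1 and 251 TPM in RL livers. Without DL3 liver the count against DL fell from 6 to 1, and without MZ1 liver the count against MZ fell from 7 to 4. fkbp4, a chaperone of the receptor and a relative of fkbp5, was called higher in PG than in MZ livers (84.4 against 4.54 TPM, adjusted p = 0.000203) and higher in PG than in DL muscles (564 against 31.9 TPM, adjusted p = 0.000671). Of the 20 FK506-binding proteins listed besides fkbp5, 10 are in the tables and 8 were tested in each tissue; fkbp8, an anchor of mitochondrial and endoplasmic membranes, was likewise higher in PG than in MZ livers (71.7 against 10.9 TPM) and than in RL muscles (30.9 against 3.57 TPM). fkbp1b, which steadies calcium release channels, was lower in MZ livers (2.93 TPM) than in DL (37.0 TPM) and RL livers (30.6 TPM). Of the 8 tested, 4 were called between DL and PG livers and 1 between PG and RL livers, where 8.4% and 4.05% of all tested genes were called. Between MZ and PG, DL and MZ, and MZ and RL livers 2 of 8 were called each, beside 1.37%, 4.56% and 1.87% of all tested genes. In muscle 3 of 8 were called between DL and PG, 3 of 8 between PG and RL and 1 of 8 between MZ and PG. These muscle pairs called 10.6%, 11.8% and 1.13% of all tested genes.

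Few coregulators that the receptor recruits were called between species. Of 20 symbols 13 are in the tables, and 3 of 13 were higher in DL than in PG livers with none lower, where 5.4% of all tested genes were called higher. These were the coactivators ncoa6 (6.22 against 1.16 TPM), ncoa2 (5.71 against 1.08 TPM) and ncoa3 (2.13 against 0.132 TPM), and the median of the list was 1.05 against 0.14 over all genes. None of the 3 was called without DL3 liver. In the other 5 pairs of livers 0 of 13 was called by limma, with 10 of 13 at an unadjusted p under 0.05 between DL and MZ and between 1 and 5 in the rest. In muscle 1 of 13 was called higher in DL than in PG, where 6.31% of all tested genes were, and this was ncoa2 (7.89 against 3.09 TPM, log2 fold change 1.11, SE 0.25, adjusted p = 0.00935). The corepressor ncor1 averaged 73.6 TPM in PG against 31.7 TPM in DL muscles and was not called.

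Genes that move or alter steroids were few in the tables, 5 of 15 symbols. abcb1, an efflux pump that carries cortisol among many other compounds, was high in PG livers at 93.5, 72.8 and 64.0 TPM, against 6.57, 2.93 and 6.77 TPM in DL (DL minus PG -3.65, SE 0.53, adjusted p = 0.00117) and 0.850 and 5.68 TPM in RL (PG minus RL 4.45, SE 0.59, adjusted p = 0.00114). MZ livers lay between, at 15.2, 29.6 and 43.8 TPM. Each call was 1 of 5, where 3% and 2.09% of all tested genes were called in those directions. srd5a1, also on this list, was instead highest in DL livers, at 9.36, 4.13 and 16.7 TPM against 0.448, 0.273 and 0.868 TPM in MZ. Between DL and MZ livers 1 of 5 was called higher in DL, where 3.36% of all tested genes were. In muscle srd5a3, a steroid 5-alpha-reductase relative that also serves protein glycosylation, was higher in PG than in RL (7.42 against 1.79 TPM, adjusted p = 0.00784). This was 1 of 5, where 6.96% of all tested genes were called in that direction.

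Other genes listed as induced by glucocorticoids were called between species mostly in muscle. Of 37 symbols for feedback and signalling genes 16 are in the tables. The symbols include relatives of induced genes, such as those of tsc22d3, so that not each is an established target. In muscle 7 of 16 were higher in PG than in RL and 4 of 16 higher in MZ than in RL, with none lower, while 6.96% and 4.17% of all tested genes were called in those directions; the medians of the list were 1.22 and 1.44. Against DL, 3 of 16 were higher in PG and 2 of 16 higher in MZ, where 4.3% and 1.81% of all tested genes were. Between DL and RL muscles 0 of 16 was called by limma, with 6 at an unadjusted p under 0.05, where the calls made up 0.486% of all tested genes. dusp1, a phosphatase that turns off stress kinases, held 833, 524 and 894 TPM in PG muscles and 50.1, 28.8 and 39.3 TPM in RL muscles (4.21, SE 0.34, adjusted p = 2.26e-05). ddit4, an inhibitor of the growth kinase mTOR, held 231, 135 and 188 TPM in PG muscles against 12.0, 3.85 and 5.74 TPM in DL (DL minus PG -4.59, SE 0.50, adjusted p = 0.000157). fam107b was peculiar in its order, at 89.1, 103.8 and 118.1 TPM in MZ muscles and at most 15.1 TPM in all others.

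In liver 14 of the 16 were tested. ddit4 alone was called, and in 1 pair only: the MZ livers held 188, 533 and 413 TPM and the DL livers 15.1, 17.9 and 34.3 TPM (DL minus MZ -3.97, SE 0.66, adjusted p = 0.00361). Lower in DL than in MZ livers were 1.2% of all tested genes. In the other 5 pairs of livers 0 of 14 was called by limma, with between 2 and 5 at an unadjusted p under 0.05. The difference between the tissues, tested as the interaction, was called for between 0 and 2 of 16 genes in the 6 pairs of species, beside between 0.623% and 4.9% of all tested genes. dusp1 in liver lay between 10.5 TPM in MZ1 and 136 TPM in PG2, with overlap between the species. Of the genes of liver glucose and amino acid metabolism, 13 of 33 symbols are in the tables, 12 were tested in liver and 0 of 12 was called between any pair of species by limma, with between 1 and 4 at an unadjusted p under 0.05. The pairs called between 0.795% and 8.4% of all tested genes, so that a count of 0 of 12 is near the background. g6pc and tdo2, which complete glucose release and start tryptophan breakdown, were called higher in liver than in muscle in all 4 species, like tat. Of the 13 genes 5 were higher in liver in DL, MZ and RL and 6 in PG, while 4 (DL), 3 (MZ), 3 (PG) and 2 (RL) were lower there, where 22.5%, 27.3%, 20.3% and 20% of all tested genes were called lower. acsl1, which activates long fatty acids, was among the lower genes in all 4 species, for example at 4.94 TPM in liver against 153 TPM in muscle of DL. In muscle pdk4, which spares glucose by blocking pyruvate dehydrogenase, differed between the open-water and the rock-dwelling species in the opposite direction to dusp1: 111, 40.4 and 48.6 TPM in DL and 32.0, 29.9 and 49.3 TPM in RL, against 5.49, 3.65 and 3.69 TPM in MZ and 4.30, 11.2 and 8.77 TPM in PG. All 4 pdk4 differences between these groups of species were called, from DL minus MZ (3.55, SE 0.40, adjusted p = 0.000485) to PG minus RL (-2.11, SE 0.40, adjusted p = 0.00328). In each of these 4 pairs of muscles pdk4 was the 1 call among the 10 tested genes of its list. In those directions 1.59% (DL and MZ), 6.31% (DL and PG), 1.66% (MZ and RL) and 4.87% (PG and RL) of all tested genes were called. Of 28 symbols for muscle catabolism, pdk4 among them, 8 were tested in muscle. In each of these 4 pairs 1 of the 8 was called higher and 1 lower. In liver pdk4 was instead lower in DL, at 12.7, 8.76 and 20.7 TPM, than in MZ, at 36.5, 57.4 and 92.9 TPM, and this was not called. fbxo32, the muscle ubiquitin ligase of atrophy, was not called between species; its muscle levels ran from 7.37 TPM in RL2 to 908 TPM in RL3.

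**Figure D4:**
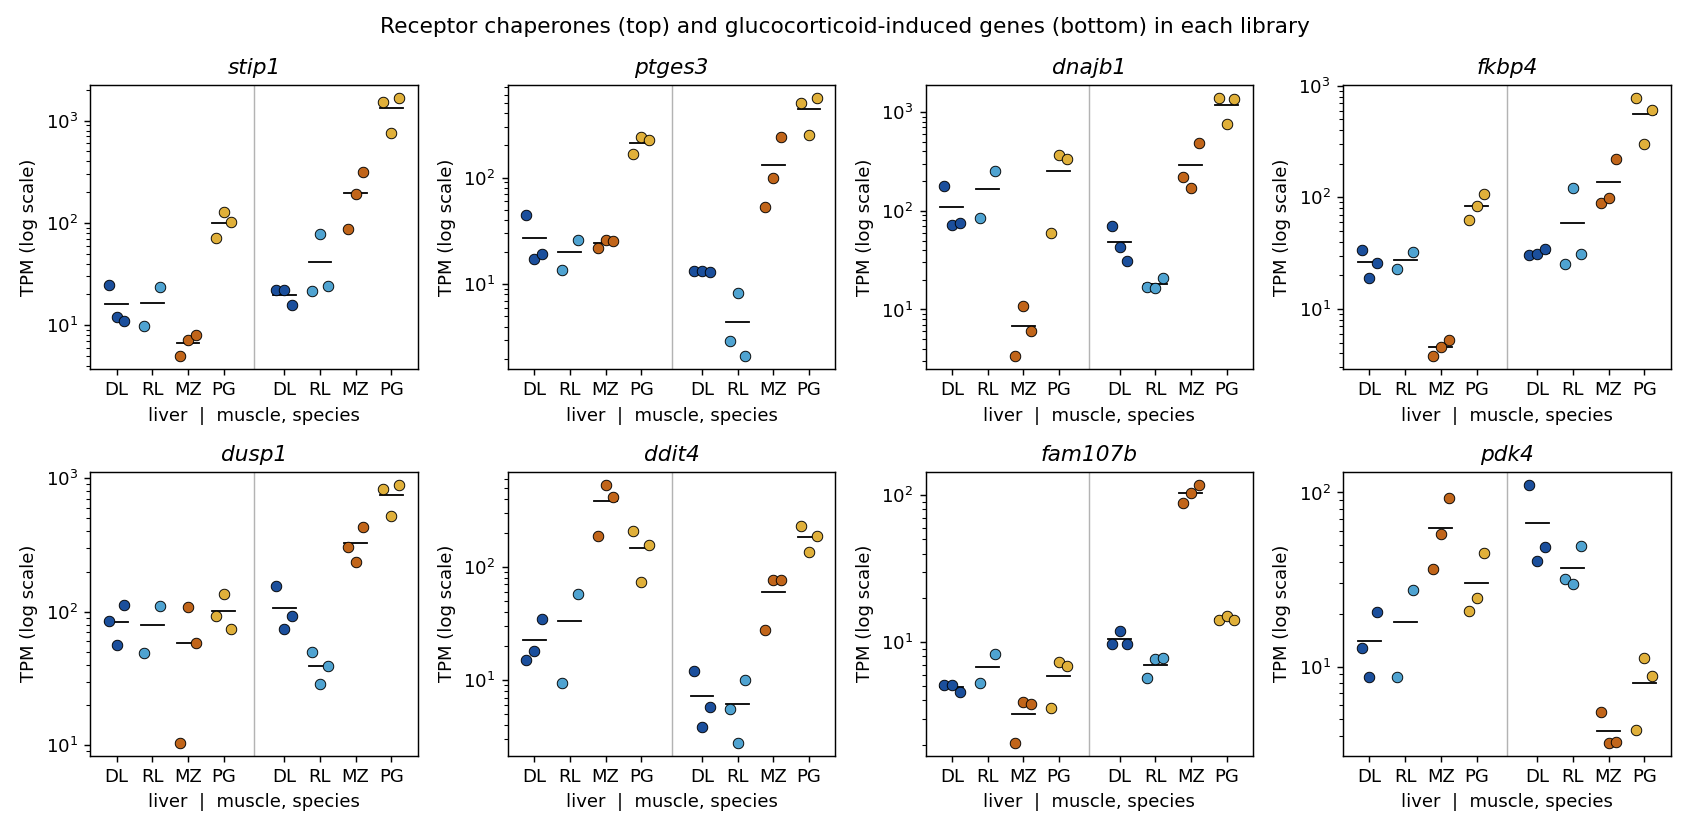
TPM (vertical axis, log scale) of 4 receptor chaperones (stip1, ptges3, dnajb1, fkbp4) and 4 genes from the lists of glucocorticoid-induced genes and their relatives (dusp1, ddit4, fam107b, pdk4) in each library by tissue and species; points are fish and lines are means of 2 or 3 fish. The chaperones are highest in PG muscles, dusp1 and ddit4 are higher in every MZ and PG muscle than in any DL or RL muscle, and pdk4 is lower there.

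Immediate early genes, which many stimuli switch on within minutes and which glucocorticoids do not define, moved with the induced genes in muscle. Of 28 symbols 12 are in the tables; 8 of 12 rose from RL to MZ muscles, 7 of 12 from RL to PG, 5 of 12 from DL to MZ and 4 of 12 from DL to PG, with none called the other way, while 4.17%, 6.96%, 1.81% and 4.3% of all tested genes were called in those directions. atf3, a stress-induced transcription factor, reached 838, 443 and 774 TPM in PG muscles, against 13.2, 3.79 and 11.3 TPM in RL (6.13, SE 0.45, adjusted p = 1.01e-05). In liver the direction differed by gene: fosb was higher in DL than in MZ (13.3 against 0.686 TPM, adjusted p = 0.000899), and fosl2 higher in PG than in DL (67.9 against 7.52 TPM, adjusted p = 0.00155). Skeletal muscle markers summed to between 5018 and 12472 TPM in PG muscles and 5399 and 18748 TPM in MZ, against 14039 to 23754 TPM in DL and 18047 to 28418 TPM in RL. The part of this shift, of the leukocyte markers and of the handling of the fish before sampling in the muscle differences was not tested.

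Of the symbols listed for inflammation, some of them for genes that glucocorticoids repress, 3 of 19 are in the tables. In muscle ptgs2, the inducible cyclooxygenase, was higher in PG than in RL (17.0 against 1.49 TPM, adjusted p = 0.00580), and socs3, a brake on cytokine signalling, higher in MZ than in RL (87.9 against 16.1 TPM, adjusted p = 0.00791). Each was 1 of 3, in pairs that called 11.8% and 5.82% of all tested genes. Between livers 0 of 3 was called by limma in any pair, with at most 1 at an unadjusted p under 0.05, where pairs called at most 8.4% of all tested genes. Of 16 symbols for thyroid hormone signalling, to which klf9 also responds, 8 are in the tables and 7 were tested in liver. There 1 of 7 was called in each of 3 pairs (MZ and RL, PG and RL, DL and PG), which called 1.87%, 4.05% and 8.4% of all tested genes. In the other 3 pairs of livers 0 of 7 was called by limma, with between 1 and 3 at an unadjusted p under 0.05. dio1, a deiodinase, was at 25.0 TPM in RL against 2.11 TPM in MZ and 2.38 TPM in PG (adjusted p = 0.00762 and 0.00545), and slc16a10, a carrier of thyroid hormone and aromatic amino acids, was higher in DL than in PG (39.0 against 6.69 TPM, adjusted p = 0.00539). Of the other 26 KLF symbols 4 are in the tables, and only klf12 was called between species, higher in PG and in MZ than in RL muscles (10.2 and 10.1 against 3.42 TPM). Each was 1 of 4, where 6.96% and 4.17% of all tested genes were called in those directions. klf15, which glucocorticoids induce in mammalian liver and muscle, was called higher in liver than in muscle in DL (3.92), RL (3.11) and PG (2.90). In these species 12.2%, 10.4% and 11.2% of all tested genes were called higher in liver.

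The genes whose level over libraries was most like that of each member were found among tested genes whose mean was 5 TPM or more, 6407 in liver and 7535 in muscle, as a description without a test. For nr3c1 in liver they were LOC101477347 (r = 0.994), LOC101471709 (r = 0.987) and cab39 (r = 0.982) over 11 livers, and in muscle kdm6a (r = 0.941), LOC101486051 (r = 0.941) and LOC101467852 (r = 0.937) over 12 muscles. For klf9 in liver they were LOC105940620 (r = 0.970), LOC101473066 (r = 0.969) and tgm1 (r = 0.969). In muscle the gene most like klf9 was cebpd (r = 0.967), a transcription factor that is itself on the list of induced genes, followed by LOC101469585 (r = 0.947) and tinagl1 (r = 0.945). cebpd shared with klf9 the outlying RL3 muscle, at 129 TPM against 20.8 and 16.3 TPM in the other RL muscles. For tat in liver they were slc43a1 (r = 0.917), LOC101464562 (r = 0.917) and ndufs4 (r = 0.900). nr3c2 correlated with nr3c1 at r = 0.88 in liver and 0.87 in muscle. All these correlations rest on species that differ and on libraries that share their scaling.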

How the data were processed

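The authors trimmed stranded, ribosome-depleted RNA-seq reads with Trim Galore, assigned them with kallisto to the M. zebra UMD2a transcriptome whatever the species, and deposited TPM values per gene and library, unfiltered. Divergence from that reference can therefore lower values of the other species, and counting error is unknown. In both tables together, 8 columns are the authors' means per species and were not used. Depth and precision per library were not derived. The lists of methylated regions, the methylomes and the libraries of other species were not used here, as no annotation or sequence of the lists' build was at hand; overlaps with methylated regions and promoter motifs were not run, and no sequence is printed.

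Linear models from limma 3.58.1 (R 4.3.3) were fitted to log2(TPM + 1), letting the variance follow mean expression. Genes reaching 1 TPM in 2 or more libraries entered: 16613 in liver, 18101 in muscle and 20549 in the fit of both tissues. Species was the only term within a tissue. The fit of both tissues had 8 groups and gave liver minus muscle and the interactions. Adjustment (Benjamini-Hochberg) was within each contrast over all tested genes, and calls need an adjusted p under 0.01. tat was not tested between species in muscle. Contrasts share libraries, so their calls are not independent. The log2(TPM + 1) scale understates changes of low genes. The fits were tested on simulated data.

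Members and lists were chosen with earlier results of these data known. List genes were named only if called, at most 4 per list and kind of contrast by size; dusp1 and dnajb1 in liver, ncor1 in muscle, acsl1, fbxo32 and cebpd were given beside them after their values were seen. Likeness was ranked as the 3 highest Pearson correlations. How far each liver and muscle lay from its group mean correlated at 0.0920 to 0.160 within 11 fish (10 exceeded 0.1). For 22 liver and muscle pairs from unlike fish of a species it was -0.131 to 0.0331. Distances from a group mean cancel out within the group, so both sets of values are tied and their contrast does not test the pairing. The pairing comes from the study's sample sheet. Alternatives were pseudocounts of 0.1 and 0.5, no filter, a mean of at least 5 TPM, quantile normalization, no trend, a threshold of 0.05, the fish or its number as a block, the pair of species alone and each library left out.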

Additional observations from a re-analysis of the deposited data

How the results depend on the processing

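Of the 18 member tests between species in liver 2 were called, in pairs that called between 0.795% and 8.4% of all tested genes. The number was 1 with a pseudocount of 0.1 or 0.5, without a filter on low values or with the pair of species alone, 5 after quantile normalization, 5 at an adjusted p under 0.05, and between 1 and 3 with single livers left out. The 5 after quantile normalization and the changes with the filter were not traced to a cause. At 0.05, between 1.94% and 22.1% of all tested genes were called in the liver pairs and between 2.07% and 25.2% in the muscle pairs. In muscle 0 of 12 was called (7 at an unadjusted p under 0.05), in pairs that called between 0.486% and 11.8% of all tested genes. The number was 5 at an adjusted p under 0.05, and between 0 and 2 with single muscles left out. Between tissues 6 of 12 were called under every alternative run, where the main fit called between 30.4% and 35.9% of all tested genes. In the main fit these were tat in all 4 species and nr3c1 in MZ and PG. Of the 18 interactions 0 was called, with 6 at an unadjusted p under 0.05, in pairs that called between 0.623% and 4.9% of all tested genes. The number was 1 after quantile normalization, 2 at an adjusted p under 0.05 and between 0 and 1 with single libraries left out. The F test called 1 of 5, beside 8.6% of all tested genes in liver and 13% in muscle. It called 2 with a mean of at least 5 TPM, 2 after quantile normalization and 3 at an adjusted p under 0.05. With single libraries left out it called between 0 and 2 (0 without PG1 or PG2 liver, 2 without MZ1 liver or RL3 muscle). With the replicate block, the fish in the fit of both tissues and the fish number within a tissue, the member counts were 3, 0, 6, 0 and 1 in the same order. Within a tissue the number links only different fish of different species. That block therefore reflects no pairing of the design, and the changes it made are given as a description only. With it klf9 between PG and RL livers was called (3.13, adjusted p = 0.00775). nr3c2 was called in liver between DL and MZ (adjusted p = 0.00730) and between DL and PG (adjusted p = 0.00726) and no longer between MZ and PG muscles (adjusted p = 0.0204). Over 32 single differences of members and nr3c2, no sign changed under any alternative. These were picked for an adjusted p under 0.05 in the main fit, with some tat differences added, so stable signs were likely beforehand. Small differences not picked did change sign after quantile normalization, such as klf9 liver minus muscle in PG (0.05 to -0.17) and nr3c1 MZ minus RL in muscle (0.07 to -0.04). Among the picked, 693 values stayed on their side of the threshold, 28 fell below it and 25 passed it. TPM hides the depth, so the limit that depth sets on low values such as tat in muscle is unknown.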
